A study of Mus musculus with 12 samples.

Results

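The genes of the cytoplasmic ribosomal proteins were examined here as a set of housekeeping loci across 6 ATAC-seq peak lists from mouse embryos at embryonic day 7.5. They were chosen by symbol alone from the RefSeq annotation of the mouse build mm10 (GRCm38.p6): autosomal protein-coding genes named Rpl or Rps followed by a digit, together with Rplp0, Rplp1, Rplp2 and Rpsa. Kinase genes (Rps6k), like-genes and pseudogenes were left out, as was Rps19bp1, which encodes a protein that binds Rps19. This gave 76 of 20665 autosomal protein-coding genes. By symbol, 41 of these were counted as large-subunit genes, 3 as genes of the ribosomal stalk and 32 as small-subunit genes. The 3 retrogenes Rpl37rt, Rps27rt and Rps23rg1 are counted among them by symbol alone, and what they encode was not examined.

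ATAC-seq reads open chromatin through the insertion of sequencing adapters by a transposase. All embryos were homozygous for a Foxa2 allele, made by knock-in in embryonic stem cells, whose product carries the red fluorescent protein tagRFP. Foxa2 belongs to the forkhead transcription factors and acts in endoderm, node and notochord. The allele was either otherwise intact (WT) or lacked 10 residues of an alpha helix of the protein (dHx), so the controls carry the tag as well. Mice had a mixed C57Bl6/J x CD-1 background, embryos of both sexes were pooled at about 10 per sort without their extraembryonic part, and each library was made from 2000 to 5000 cells. Cells were gated by tagRFP. High cells were brighter than any heterozygous cell, Middle cells reached from above autofluorescence up to the heterozygous maximum, and Negative cells were the remaining gate. Each of the 2 genotypes at each of the 3 levels had 2 samples, and each of these 6 groups was deposited as 1 peak list made from pooled reads. There was therefore no replicate spread and no test between groups. Intervals in brackets are exact 95% binomial limits (Clopper-Pearson) and hold counting error alone. Where 6 values follow each other, their order is WT High, WT Middle, WT Negative, dHx High, dHx Middle, dHx Negative.

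Ribosomal proteins coat and shape the ribosomal RNAs that read messages and join amino acids. Every growing cell needs them in near-equal amounts, and their genes are known for compact, CpG-rich promoters, for transcription that starts within a short run of C and T, and for introns that house small nucleolar RNAs. Embryonic cells at gastrulation divide fast and make ribosomes at a high rate, so these promoters serve as a textbook example of constitutively open chromatin.

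The lists held between 37129 peaks (dHx High) and 50424 peaks (dHx Negative). Depth was judged from a background pileup, the mean of a Poisson background fitted to the authors' scores, which was 0.879, 1.5, 1.08, 0.476, 0.786 and 1.57. Read totals were not used here. Each peak carries the authors' own score, read as a −log10 p-value or q-value. Scores rise with depth, so they only rank or describe peaks within a list, and a higher score in another list shows no change. A percentile is the rank of a score among all peaks of its list. As a check of the sort, Foxa2 itself had a peak within 1 kb in all 6 lists. Its strongest peak stood at percentile 89.2, 87.3 and 78.5 in the WT lists and at 95, 91.1 and 77.0 in the dHx lists, so both Negative lists held its lowest ranks. The lists come from bulk cells, so fewer cells with an open site and a less open site in each cell cannot be told apart.

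Start-site sequences were printed for the members at the extremes of the data. They run from 70 bases before to 30 bases after the first annotated start, 5′ to 3′ on the coding strand, and come from the RefSeq promoter table for GRCm38.p6, which held 66 windows for 56 of the 76 members. Rpl15 (chr14:18270957-18271056, minus strand) had the highest mean rank of all members, Rps24 (chr14:24490608-24490707, plus strand) the lowest, and Rpl27a (chr7:109519125-109519224, plus strand) the longest pyrimidine tract at its start. Capitals mark this tract and, in Rpl15, the ETS motif CCGGAAG.
Rpl15: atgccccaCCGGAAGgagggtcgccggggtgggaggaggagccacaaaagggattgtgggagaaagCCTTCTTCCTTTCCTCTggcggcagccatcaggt
Rps24: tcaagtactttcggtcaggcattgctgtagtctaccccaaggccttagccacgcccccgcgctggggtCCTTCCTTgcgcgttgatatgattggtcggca
Rpl27a: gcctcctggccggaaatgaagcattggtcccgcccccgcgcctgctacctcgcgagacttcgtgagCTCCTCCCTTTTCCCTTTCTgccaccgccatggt
The tract was 17 bases long in Rpl15, 8 in Rps24 and 20 in Rpl27a, so the members with the highest and the lowest mean rank both held one.

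A pair of related starts shows a gene with a peak in every list beside its copy with none. Rps27rt (chr9:114982710-114982809, minus strand) is a retrogene of Rps27 (chr3:90213619-90213718, minus strand), which was added after its values were seen. Capitals mark the printed portion of the longest run that both 300-base windows share, 38 bases from base 2 of Rps27 and base 1 of Rps27rt, counted from the annotated start.
Rps27: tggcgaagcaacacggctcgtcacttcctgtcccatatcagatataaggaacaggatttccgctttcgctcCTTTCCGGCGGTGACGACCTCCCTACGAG
Rps27rt: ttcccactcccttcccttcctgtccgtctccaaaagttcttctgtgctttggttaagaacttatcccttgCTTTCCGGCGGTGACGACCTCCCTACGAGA
Rps27, a zinc-binding protein of the small subunit, had scores of 11.7, 5.61, 8.13, 11.3, 8.67 and 11.2 in a region that also covered the promoter of Rab13, and Rps27rt had no peak in any list. Reads from near-identical copies can be lost or split during mapping, so the values of retrogenes are uncertain. The peak names hold the word unique, and the part of mapping in the absence at Rps27rt was not tested.

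Most members had a peak in every population. With a peak midpoint inside or within 1 kb of the gene counted, 66 of 76 members had a peak in WT High (86.8%, 77.1 to 93.5) against 69% of all autosomal protein-coding genes. In WT Middle 69 members had a peak (90.8%, 81.9 to 96.2), against 65.7% of all genes. In WT Negative there were 60 (78.9%, 68.1 to 87.5), against 65.5%. This was the lowest count of the 6 lists.

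In dHx High 70 members had a peak (92.1%, 83.6 to 97.0), against 67.8% of all genes. In dHx Middle there were 64 (84.2%, 74 to 91.6), against 64.3%. In dHx Negative there were 66 (86.8%, 77.1 to 93.5), against 69.5%. The dHx High list, with the fewest peaks and the lowest fitted background, thus held the most members, and the members' counts did not follow list length.

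Members are short genes, with a median of 3206.5 bp (374 to 16779) against 17491 bp for all genes, so a window around them takes in less sequence. The longest member was the retrogene Rps23rg1. Among the 10088 autosomal protein-coding genes no longer than the longest member, the share with a peak was 52.6%, 49.4%, 49.5%, 51.1%, 47.9% and 53.7%. Each of these values lies below the members' interval in that list. Mitochondrial ribosomal protein genes, which serve the other ribosome of the cell, reached 89.7% of 78 genes in WT High, 79.5% in WT Middle and 75.6% in WT Negative. Their intervals overlapped those of the members in all 6 lists.

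**Figure D1:**
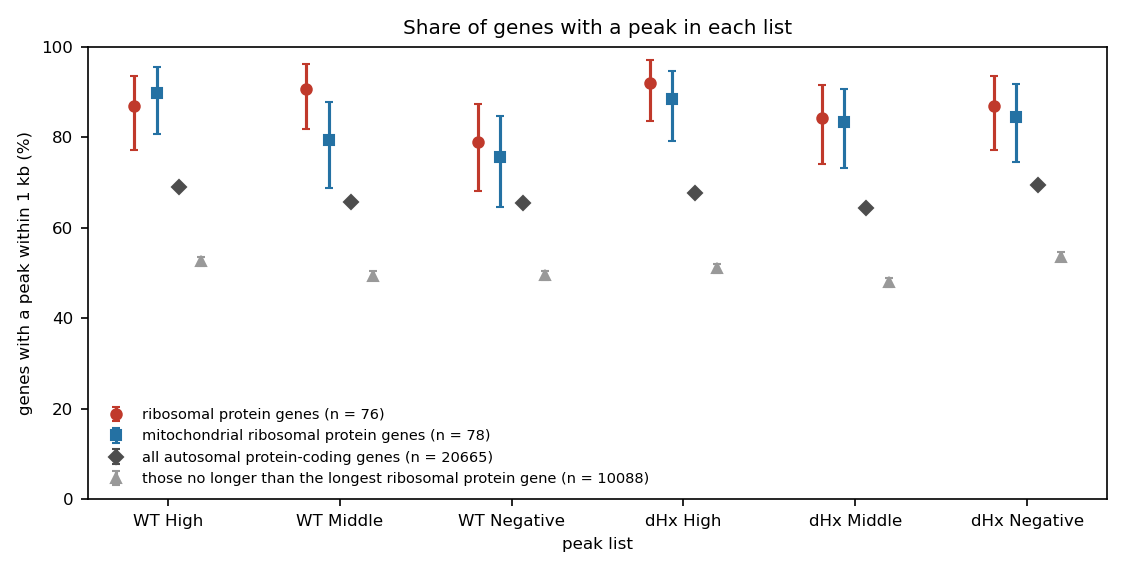
Share of genes with a peak within 1 kb (y axis, %) in each of the 6 peak lists (x axis), for ribosomal protein genes, mitochondrial ribosomal protein genes, all autosomal protein-coding genes and those no longer than the longest ribosomal protein gene. Bars are Clopper-Pearson 95% intervals, and the ribosomal protein genes lie between 78.9% (WT Negative) and 92.1% (dHx High), above both gene backgrounds in every list.

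A peak in all 6 lists was found at 50 of 76 members (65.8%, 54.0 to 76.3), against 51.7% of all autosomal protein-coding genes and 35.9% of those no longer than the longest member. These were 27 of 41 large-subunit genes, 21 of 32 small-subunit genes and 2 of 3 stalk genes. No peak in any list was found at 2 members, both retrogenes, and 24 members had a peak in some lists only. The name of a constitutive set therefore described these lists for 65.8% of its members, and 26 members lacked a peak somewhere.

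Other lists of the translation and growth machinery were close to this level. A peak in all 6 lists was found at 46 of 78 mitochondrial ribosomal protein genes (59.0%, 47.3 to 69.99) and at 23 of 39 genes of the proteasome, the protease that degrades ubiquitin-tagged proteins (59.0%, 42.1 to 74.4). Ribosome assembly factors reached 25 of 38 (65.8%, 48.6 to 80.4), and translation factors, which deliver messages and transfer RNAs to the ribosome, 51 of 64 (79.7%, 67.8 to 88.7). All 4 intervals overlapped that of the members. Developmental marker lists held fewer genes. A peak in all 6 lists was found at 14 of 20 endoderm genes (70%, 45.7 to 88.1). For node genes it was 6 of 10 (60%, 26.2 to 87.8) and for mesoderm genes 7 of 14 (50%, 23.0 to 77.0). For blood and endothelium genes it was 4 of 9 (44.4%, 13.7 to 78.8). Neural and epiblast genes reached 6 of 11 (54.5%, 23.4 to 83.3) and extraembryonic genes 4 of 6 (66.7%, 22.3 to 95.7). Each of these intervals overlapped that of the members.

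**Figure D2:**
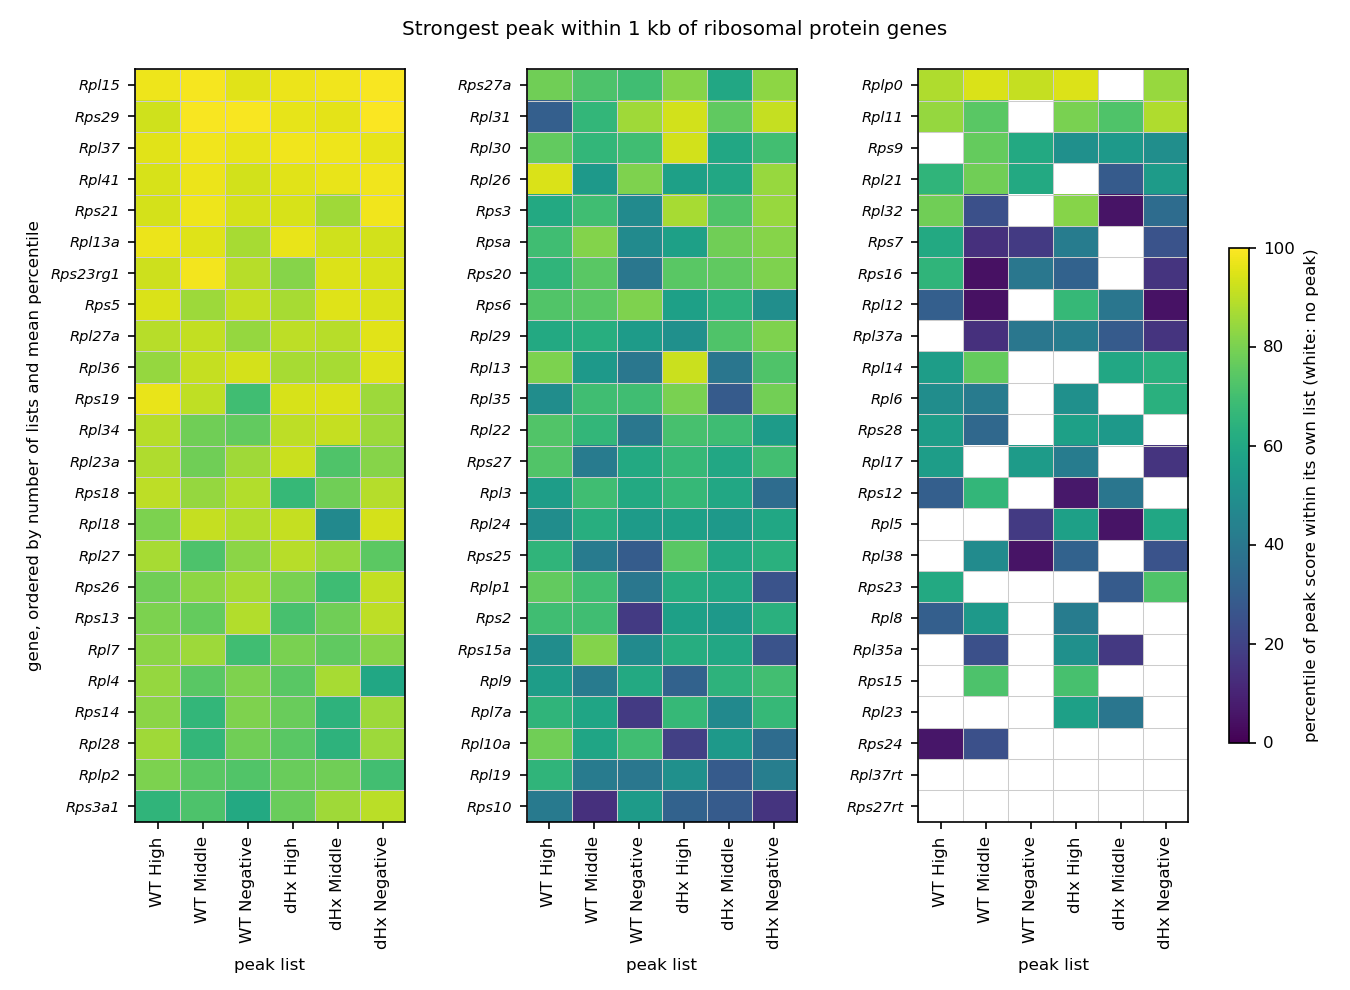
Percentile of the strongest peak within 1 kb of 72 ribosomal protein genes (colour, 0 to 100, rank of its score within its own list) in the 6 peak lists (x axis), with genes ordered by number of lists and mean percentile (y axis) and white where there is no peak. Rpl15, Rps29, Rpl37 and Rpl41 stand above percentile 90 in every list, and white cells lie at 24 genes.

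Among the large-subunit genes, Rpl15, whose product lies in the core of the subunit, had the strongest starts. Its region at chr14:18269734-18271437 covered its own promoter and scored 55.1, 92.8, 38.7, 53.2, 60.7 and 110. These values ranked between percentile 95.6 (WT Negative) and 99.1 (dHx Negative). Rpl37, a zinc-binding protein, had scores of 40.3, 72.9, 41.7, 62.8, 55.4 and 53.2 at chr15:5115800-5116913, between percentiles 95.6 and 98.0. Rpl41, a very small basic peptide, ranked between percentiles 93 and 97.7. Its strongest region in 5 of 6 lists lay at chr10:128547154-128548408, over the promoter of the neighbouring gene Zc3h10, while the region over its own start (chr10:128548699-128549575) scored 34.0, 22.1, 13.8, 15.6, 23.3 and 24.0. Both regions held a peak in all 6 lists, so the gene was open throughout with or without its neighbour.

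Rpl13a, a large-subunit protein also known for a role in translational silencing, carried 13 peaks over the lists at chr7:45125563-45128745. The region over its start scored 50.0, 46.7, 20.2, 51.3, 30.8 and 37.3, and its rank was lowest in WT Negative, at percentile 87.1. Rpl36 had the most peaks, 17 over the lists, but its strongest region (chr17:56609353-56610288) overlapped the promoter of Micos13. Rpl18 and Rpl19, with 14 peaks each, likewise had a region over another gene's promoter, Sphk2 and Cacnb1. In all, 13 members had a region that also overlapped the promoter window of another gene, so peaks near them cannot be given to the ribosomal protein gene alone.

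Rpl5 and Rpl11 bind the smallest ribosomal RNA of the large subunit together and are known to restrain Mdm2 when ribosome assembly fails. Rpl11 (chr4:136053118-136053714 at its start) scored 18.1, 13.7, 17.1, 12.3 and 25.3 in 5 lists and had no peak in WT Negative. Rpl5 (chr5:107900290-107901028) had no peak in WT High or WT Middle and scored 3.28 in WT Negative and, in the dHx lists, 8.55 (High), 2.43 (Middle) and 8.19 (Negative). Both genes had a peak in every dHx list, while the WT lists without a peak were not the same for Rpl5 and Rpl11. The Rpl5 score of 2.43 was the lowest score of the dHx Middle list. Rpl6 and Rpl14, neighbours on the surface of the subunit, each had a peak in 4 lists. Rpl6 lacked one in WT Negative and dHx Middle (scores elsewhere 5.97, 5.61, 7.26 and 9.17), and Rpl14 in WT Negative and dHx High (7.04, 14.9, 8.67 and 9.17).

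Weak starts were found at Rpl12 at the base of the stalk, at the zinc-binding protein Rpl37a and at Rpl38, whose loss in mice is known to alter the axial skeleton. Rpl12 scored 3.97, 2.35, 11.3, 5.33 and 2.24 and had no peak in WT Negative. Rpl37a scored 3.10, 5.09, 6.02, 4.31 and 2.97 and had none in WT High. Rpl38 had 4 separate regions, of which the one over its start (chr11:114668391-114668838) held a peak in WT Middle only, with a score of 6.52. The mean percentiles of these 3 genes were 29.1, 27.9 and 27.7.

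Rpl23, which also binds Mdm2, had a peak in dHx High (chr11:97781823-97782718, score 8.55, over its promoter) and another in dHx Middle (chr11:97776841-97777257, score 5.33, beyond its other end), and none in a WT list. The 2 peaks did not overlap, so no single region of Rpl23 was shared by dHx lists. Rpl35a, a gene mutated in some cases of Diamond-Blackfan anaemia, scored 3.89 in WT Middle, 7.26 in dHx High and 3.34 in dHx Middle, in a region that also covered the promoter of Iqcg. Rpl8, near the peptidyl transferase centre, scored 3.97 in WT High, 7.47 in WT Middle and 6.02 in dHx High. Rpl32, a large-subunit protein often used as a reference transcript, had no peak in WT Negative. At chr6:115808319-115809329 it ranked from percentile 5.38 in dHx Middle (score 2.43) to 81.9 in dHx High (18.6). Rpl17 lacked a peak in WT Middle and dHx Middle and scored 7.04, 7.08, 6.02 and 2.97 in the other 4 lists.

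The stalk recruits elongation factors to the ribosome. Rplp0, its anchor, scored 22.2, 42.3, 25.6, 40.4 and 20.3 in 5 lists at chr5:115559245-115559728, between percentiles 84.4 and 94.6, and had no peak in dHx Middle. Rplp1 and Rplp2 form the dimers that hang from it. Rplp2 scored 15.5, 13.7, 11.5, 15.6, 14.9 and 11.2 and ranked between percentiles 69.8 and 80.5. Rplp1 ranked from percentile 25.7 in dHx Negative (score 3.74) to 75.9 in WT High (12.9). Both Negative lists held its lowest ranks (percentile 39.8 and score 5.09 in WT Negative).

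Among the small-subunit genes, Rps29, a zinc-binding protein, ranked between percentiles 92.9 and 99.4 with scores of 31.0, 101, 78, 49.5, 41.9 and 129 at chr12:69158543-69160023. Rps21 followed with 32.5, 65, 31.3, 36.8, 20.4 and 73.4 at chr2:180256459-180257602. Both genes had exactly 1 peak in each list. Rps23rg1, a retrogene on chromosome 8, had a peak in all 6 lists (29.5, 82.7, 22.8, 18.6, 37.0 and 41.5), so the 3 retrogenes were not alike.

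Rps19, the gene most often mutated in Diamond-Blackfan anaemia, scored 46.7, 29.8, 10.3, 36.8, 35.4 and 21.5 at chr7:24883708-24884889, between percentile 69.3 in WT Negative and 96.7 in WT High. Its start is shown for a palindrome of 10 bases around CGCG, in capitals (chr7:24884522-24884621, plus strand, chosen after its values were seen).
Rps19: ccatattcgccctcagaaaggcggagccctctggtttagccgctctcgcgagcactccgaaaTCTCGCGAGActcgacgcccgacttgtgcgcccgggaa
Rpsa, which also serves as a laminin receptor, scored 10.5, 18.4, 6.07, 8.55, 14.9 and 17.9, and Rps27a, made as a fusion with ubiquitin, 14.2, 12.6, 10.3, 18.6, 8.67 and 19.1. Rps3, at the entry of the messenger RNA channel, scored 8.15, 11.6, 6.07, 23.3, 12.3 and 20.3. Rps6, the substrate of the S6 kinases, scored 11.7, 13.7, 15.1, 8.55, 9.86 and 4.55 at its start, and Rps14, near the platform of the subunit, 16.8, 10.5, 15.1, 15.6, 9.86 and 21.5. Each of these 5 genes had a peak in all 6 lists.

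Rps24, also mutated in Diamond-Blackfan anaemia, had the weakest peaks of any member that had one, at chr14:24490730-24491136, with scores of 2.19 in WT High and 3.89 in WT Middle and none elsewhere. Rps15, which aids export of the small subunit from the nucleus, also had a peak in 2 lists, WT Middle and dHx High, but with higher scores, 12.6 and 12.7 (chr10:80292285-80292584). Rps23, a protein of the decoding centre, scored 12.3 in dHx Negative, 4.31 in dHx Middle and 8.15 in WT High. These 3 genes lacked peaks in lists of both genotypes.

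Absence from a list does not in itself show a closed start. The peak numbers in the deposited names follow genome order but skip values, and the sources used here do not give why numbers were left out. Of the 61 cases of a member with no peak in a list, 24 (39.3%) lay between neighbouring peaks whose numbers skip at least 1 value, against 10.9% of all neighbouring pairs. Gaps at these places were long (median 35.7 kb, against 22.1 kb for all neighbouring peaks), and among all gaps of at least that median length 17.5% held a skipped number. The missing peaks of Rplp0 in dHx Middle and Rpl11 in WT Negative each fell at a skipped number, as did those of Rpl35a in all 3 lists without it and of Rpl38 in both. The missing peaks of Rpl5 in 2 WT lists and of Rps24 in 4 lists fell at none. Whether the skipped numbers belonged to peaks at the members was not tested. If each is counted as a peak, 58 of 76 members have 1 in all 6 lists, and 18 still do not.

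The first comparison asked whether deletion of the helix changed which member peaks were found at the same tagRFP level. In the High gate, 8 members had a peak in dHx and not in WT (10.5%, against 4.52% of all autosomal protein-coding genes) and 4 the reverse (5.26%, against 5.77%). The members' share thus differed by 5.26 percentage points, and that of all genes by -1.24. In the Middle gate 4 were gained (5.26%, against 5.11%) and 9 lost (11.8%, against 6.45%), a difference of -6.58 points beside -1.33 for all genes. In the Negative gate 6 were gained (7.89%, against 7.49%) and 0 lost (against 3.45%), a difference of 7.89 points beside 4.04 for all genes. The direction thus differed between gates. It followed fitted background in the Middle gate (lower in dHx) and the Negative gate (higher in dHx) and went against it in the High gate, and the part of depth in these differences was not tested. With all lists cut to the length of the shortest, the differences were 6.58 points in High, 0 in Middle and -1.32 in Negative, so only the High difference remained of like size. With midpoints inside the gene only, they were 6.58, -11.8 and -6.58, so the Negative difference turned sign under both settings.

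Peaks were then compared by overlap of at least 1 bp. Of 82 member peaks in WT High, 11 had no dHx High peak (13.4%, 6.89 to 22.7), against 42.6% of all autosomal peaks and 7.54% of peaks over any RefSeq promoter window. In the other direction 11 of 82 dHx High peaks had no WT High peak (13.4%, 6.89 to 22.7), against 30.5% and 9.66%. The strongest peaks without a partner were those of Rpl21 in WT High (9.29) and of Rps15 and Rpl36 in dHx High (12.7 and 11.3). Of all peaks within 1 kb of a protein-coding gene, 34.7% in WT High and 27% in dHx High had no partner, so the members lay below this set too. None of the 4 members above percentile 90 in every list had an unmatched peak here.

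In the Middle gate, 23 of 96 WT peaks had no dHx peak (24.0%, 15.8 to 33.7), against 40.9% of all autosomal peaks and 10.9% of promoter peaks. Of 78 dHx Middle peaks, 6 had no WT peak (7.69%, 2.88 to 16.0), against 30.9% and 10.9%. The peak of Rplp0, at 42.3, was the strongest WT Middle peak without a dHx Middle partner, and the next was Rps15 at 12.6. Both genes had peaks in other lists. The strongest of the 6 dHx Middle peaks was at Rps18 (11.1). Among peaks near any protein-coding gene the shares were 34.8% in WT Middle and 27.5% in dHx Middle.

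In the Negative gate, 18 of 86 WT peaks had no dHx peak (20.9%, 12.9 to 31.0), against 28.9% of all autosomal peaks and 6.35% of promoter peaks. Of 88 dHx Negative peaks, 18 had no WT peak (20.5%, 12.6 to 30.4), against 43.6% and 13.2%. The strongest were at Rpl11 (25.3) and Rps23 (12.3), both in dHx Negative. Among peaks near any protein-coding gene the shares were 24.8% and 36.9%. The members' interval in WT Negative reached above both backgrounds of 24.8% and 28.9%.

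The second comparison set cells of the High tagRFP gate against cells of the Negative gate, within a genotype. In WT, 19 of 82 High peaks had no Negative peak (23.2%, 14.6 to 33.8), against 48.8% of all autosomal peaks and 14% of promoter peaks, and 21 of 86 Negative peaks had no High peak (24.4%, 15.8 to 34.9), against 41% and 9.11%. In dHx, 11 of 82 High peaks had no Negative peak (13.4%, 6.89 to 22.7), against 39% and 9.6%, and 16 of 88 Negative peaks had no High peak (18.2%, 10.8 to 27.8), against 53.8% and 9.22%. Among peaks near any protein-coding gene the 4 shares were 42.9% and 34.4% in WT and 34% and 43% in dHx. The 10 shares of members lay below those of all autosomal peaks in 10 of 10 comparisons. They lay above those of promoter peaks in all but dHx Middle against WT Middle.

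**Figure D3:**
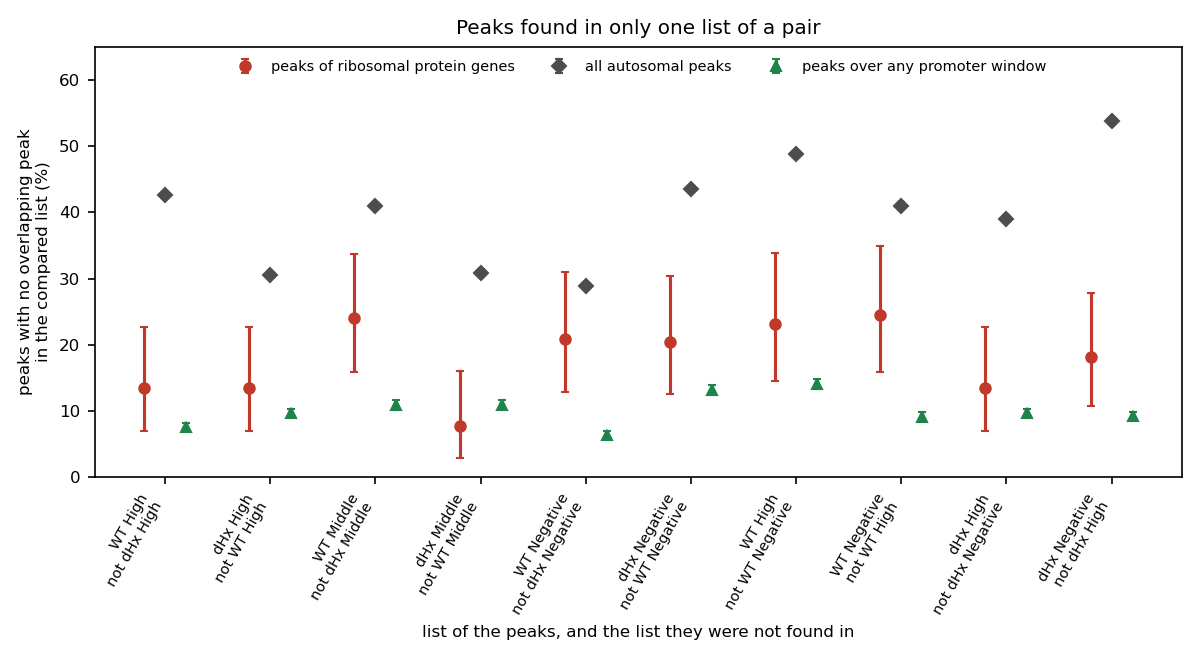
Share of peaks (y axis, %) left unmatched by any peak of the other list, for the 10 ordered pairs of lists (x axis), for peaks of ribosomal protein genes, all autosomal peaks and peaks over any promoter window, with Clopper-Pearson 95% bars. Ribosomal protein gene peaks range from 7.69% to 24.4%, below all autosomal peaks in every pair.

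The unmatched share was lower for member peaks over a promoter window than for the members' other peaks in 10 of 10 comparisons, a difference that was not tested. The lowest share over a promoter window was 1 of 46 in WT Negative without dHx Negative (2.17%, 0.0550 to 11.5), against 6.35% of all promoter peaks, and the highest 11 of 53 in WT High without WT Negative (20.8%, 10.8 to 34.1), against 14%. For WT High without dHx High it was 4 of 53 (7.55%), against 7.54%, and for dHx Negative without WT Negative 8 of 53 (15.1%), against 13.2%. Members over a window lay above all promoter peaks in 6 of 10 comparisons and below in 4. Of the 40 WT Negative member peaks over no window, 17 had no dHx Negative partner (42.5%), a class that includes members without a window in the table. Unmatched member peaks had a lower median percentile than matched ones in 10 of 10 comparisons. Their medians ran from 17 in WT Negative, against 67.3 for peaks shared with dHx Negative, to 50.3 in dHx High, against 74.3 for peaks shared with WT High.

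Member peaks above the median score of their list were compared between genotypes in the same way. In the High gate 3 of 60 WT peaks (5%) and 7 of 64 dHx peaks (10.9%) had no partner, against 20.0% and 12.3% of all autosomal peaks above the median and 2.37% and 4.11% of such promoter peaks. In the Middle gate they were 3 of 59 (5.08%) and 1 of 52 (1.92%), against 21.2% and 11% of all and 4.15% and 3.06% of promoter peaks. In the Negative gate they were 2 of 47 (4.26%) and 4 of 57 (7.02%), against 11.2% and 20.0% of all and 1.52% and 5.46% of promoter peaks. Members thus lay below all autosomal peaks in 6 of 6 comparisons and above promoter peaks in all but dHx Middle. Numbers skipped at the same place in the compared list accompanied 0 of 6 to 5 of 11 of the unmatched member peaks, with 22.3% of all unmatched autosomal peaks at such places in the first of these comparisons (dHx Middle) and 27.7% in the second (dHx High).

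Merged over the lists, member peaks formed 128 regions. Of these, 51 held a peak in all 6 lists (39.8%), against 14.1% of all autosomal regions and 60.5% of regions over a promoter window. Of the 62 member regions over a promoter window, 37 did so (59.7%). A further 35 regions held a peak in 1 list only (27.3%), against 44.1% of all autosomal regions. In WT Negative there were 12 (14% of its member peaks, against 15% of all its peaks), in WT Middle 10 (10.4%, against 16.4%) and in dHx Negative 6 (6.82%, against 22.0%). WT High held 3 (3.66%, against 17.6%), dHx High 2 (2.44%, against 14.3%) and dHx Middle 2 (2.56%, against 11.8%). Of these 35, 3 lay over a promoter window (8.57%), against 1.99% of all autosomal regions found in 1 list. Counted over promoter windows alone, 4.84% of member regions held a peak in 1 list only, against 7.78% of all such regions. The scores of the 35 ran from 2.19 to 8.55 with a median of 3.10. Those with the higher scores were at Rpl23 in dHx High (8.55), at Rpl23 and Rps15a in dHx Middle (5.33 each), and at Rpl17 (7.08), Rps20 and Rps3a1 (5.09 each) in WT Negative. In WT Middle they were at Rpl38 (6.52), Rpl19 (5.61), Rpl28 and Rpl32 (3.89 each). The Rpl28 peak lay 888 bp from its start and those of Rps15a and Rps3a1 7341 and 5063.5 bp.

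Genotype alone separated no member region. None held a peak in all 3 WT lists and no dHx list, against 0.358% of all autosomal regions, and none in all 3 dHx lists and no WT list, against 0.234%. With 128 regions a count of 0 allows a share of up to 2.34%, above both backgrounds. By tagRFP level, 2 regions were found in both High and both Middle lists but in no Negative list, against 2.15% of all autosomal regions. They were the starts of Rps12 (chr10:23787150-23787776, scores 3.97, 10.5, 2.64 and 5.33) and Rps28 (chr17:33824438-33824936, scores 7.04, 4.73, 8.55 and 7.52). Both encode small-subunit proteins, and the Rps28 region also covers the promoter of Ndufa7. No peak number was skipped at either gene in the Negative lists. The share of 1.56% lies near the background, and nothing is read from it about the members.

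**Figure D4:**
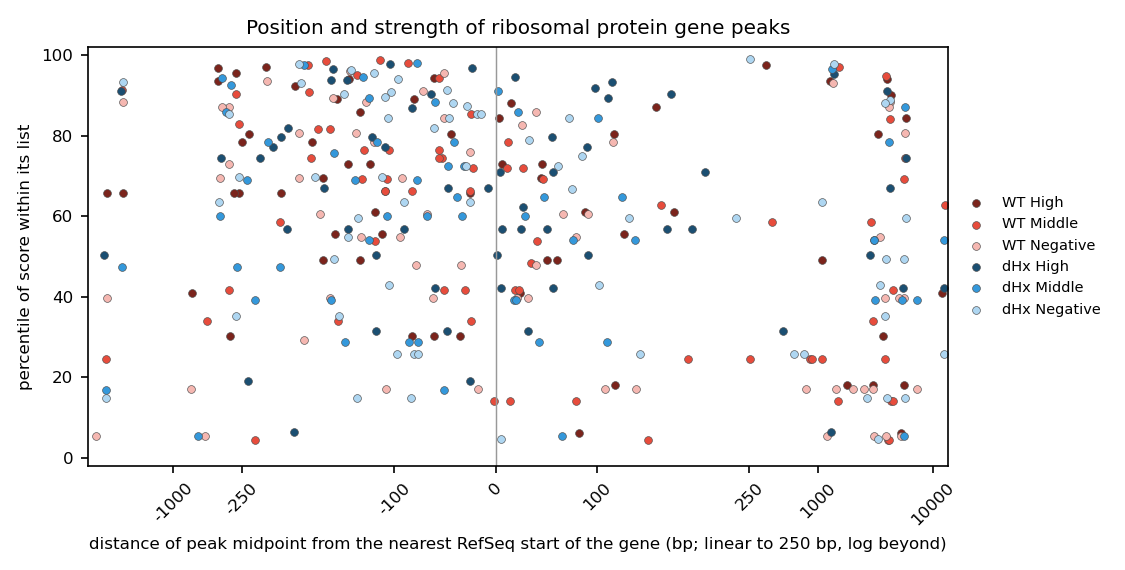
Distance of each peak's midpoint from the nearest RefSeq start of its ribosomal protein gene (x axis, bp, linear to 250 bp and logarithmic beyond) against the percentile of its score within its list (y axis), coloured by list. Peaks gather around the start, with list medians between -51 and 1.5 bp, and those beyond 1000 bp downstream include many of low rank.

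Where the start was annotated, member peaks centred on it. The median distance of the midpoint was -43.5, -23.5, -30, 1.5, -51 and -35.5 bp, negative values lying upstream. The share within 250 bp ranged from 56.5% of 62 peaks in WT Negative to 79.7% of 59 in dHx High. These distances were not measured for other genes, and the 1 kb rule limits how far from the start of a short gene a peak can lie. They show no trait particular to the members. Over the 300-base promoter windows of the 56 members that had one, 82.1%, 85.7%, 69.6%, 85.7%, 78.6% and 82.1% of the members had a peak, against 54.5%, 50%, 51.1%, 56.1%, 50.8% and 55.3% of 16457 genes. In all 6 lists this was so for 31 of 56 members (55.4%, 41.5 to 68.7), against 38.9%. Open starts were thus more frequent among members than among all genes, yet not stronger. Related sets were alike in WT High, with 84.1% of mitochondrial ribosomal protein genes, 81.25% of proteasome genes and 89.6% of translation factors. In all 6 lists these sets reached 52.2%, 56.25% and 75%. The members' median score was 11.1 in WT High against 12.9 over all promoters with a peak, and 9.86 in dHx Middle against 12.3. Member peaks were narrower as well, with a median width of 573.5 bp in WT High against 673 bp. At the edge of the 1 kb window, the nearest peak outside lay 1006.5 bp from Rps3a1 (WT Negative, score 4.16).

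The promoter letters of members differed from those of all genes in a few ways, some of them shared with related gene sets. A pyrimidine tract, defined as at least 7 letters C or T with a first C within 5 bases of the start on the coding strand, was found in 23 of 66 member windows (34.8%, 23.5 to 47.6), against 6.51% of all 20085 windows, 2.67% of mitochondrial ribosomal protein windows and 0 of 34 proteasome windows, which allows a share of up to 8.82%. The ETS motif CCGGAAG, on either strand, was in 24 windows (36.4%, 24.9 to 49.1), against 11.9% of all windows. It was as frequent in mitochondrial ribosomal protein windows (34.7%) and proteasome windows (35.3%). The palindrome capitalised in the Rps19 line was in 7 windows (10.6%, 4.37 to 20.6), against 0.672% of all windows, at Rpl10a, Rpl12, Rpl26, Rps19, Rps28 and Rps6. Median GC content was 58.8% against 57%, and the median number of CpG pairs per window 21.5 against 14. These medians were 58.7% and 21 in mitochondrial ribosomal protein windows, and 57% and 19.5 in proteasome windows.

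Other motifs were counted in the same windows, each on either strand. The GC box GGGCGG was in 57.6% of member windows against 47.0% of all, the YY1 motif AAGATGGC in 10.6% against 3.06%, and the NRF1 palindrome in 3.03% against 1.34%. The 7 member windows with the YY1 motif belonged to 5 members, and 16% of mitochondrial ribosomal protein windows held it. The E-box CACGTG was in 12.1% against 7.89% and the TATA box TATAAA in 6.06% against 12.7%. A forkhead core, TGTTTNC, was in 6 windows (9.09%, 3.41 to 18.7) against 18.2% of all. These are matches of letters in a 300-base window, and several motifs can share bases, as the GC box does with longer GC-rich runs.

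**Figure D5:**
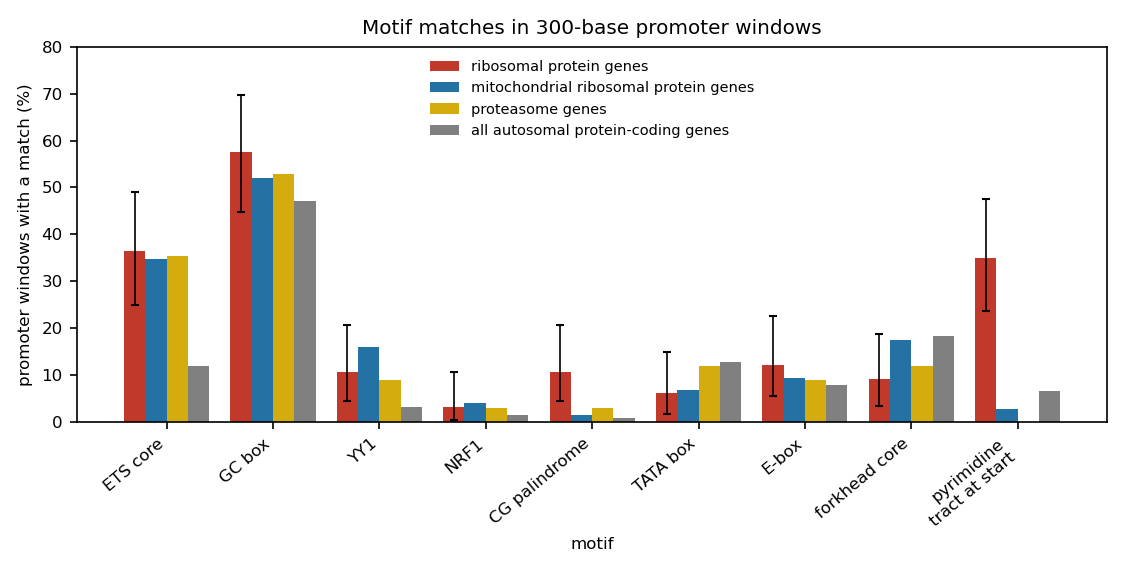
Share of 300-base promoter windows with each motif (y axis, %), for 66 windows of ribosomal protein genes (with Clopper-Pearson 95% bars), 75 of mitochondrial ribosomal protein genes, 34 of proteasome genes and 20085 of all autosomal protein-coding genes. The pyrimidine tract at the start is found in 34.8% of ribosomal protein gene windows and 6.51% of all windows.

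Among the 56 members with a window, presence across the lists was counted with and without each motif. Of the 23 members with an ETS match, 19 had a peak in all 6 lists (82.6%), and of the 33 without, 17 (51.5%). Of the 23 members with a pyrimidine tract, 18 did so (78.3%), and of the 33 without, 18 (54.5%). With the GC box the counts were 24 of 32 (75%) and 12 of 24 (50%). The other motifs were in at most 6 members each. The share with and without was 66.7% and 64% for the palindrome and for the E-box, 80% and 62.7% for YY1, and 83.3% and 62% for the forkhead core. It was 50% and 64.8% for NRF1 and 50% and 65.4% for the TATA box. These are descriptions of the same 56 genes, whose motifs overlap between genes, and were not tested. Rpl37rt and Rps27rt, the retrogenes without any peak, fell among the members without each motif. The same counts were not made over all genes with a window, so they show no trait particular to ribosomal protein genes.

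Small nucleolar RNAs guide the chemical modification of ribosomal RNA and are often cut from introns of genes for the translation machinery. Of the 76 members, 28 (36.8%) had an annotated snoRNA gene within their bounds, 57 snoRNA genes in all, against 1.72% of all autosomal protein-coding genes. Rpl4 held 5, and Rpl13a and Rpl7a held 4 each. Hosts had a peak in all 6 lists in 18 of 28 cases (64.3%) and the other members in 32 of 48 (66.7%), so presence in the lists differed little between hosts and the rest. Rps28, Rps27, Rps18, Rpl4, Rpl7a, Rpl21, Rpl10a, Rpl26 and Rps23rg1 were named after their values were seen.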

How the data were processed

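The 12 samples gave 6 deposited peak lists on mm10, 1 per genotype and tagRFP level. STAR 2.5.2a and MACS2 are the tools named, per the submitters' processing notes, while the sources used here give neither role nor settings. The score in the deposited lists has no column name and was read, from its values, as −log10 of the authors' p-value or q-value. It rises with depth.

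Lines with the same start and end were merged into 1 peak. Peaks were assigned to a gene by their midpoint, inside or within 1 kb of RefSeq gene bounds (GRCm38.p6). Peaks sharing 1 bp or more counted as overlapping, with Clopper-Pearson 95% intervals (SciPy 1.17.1 under Python, version 3.11.15). Background pileup was fitted to the 40 lowest distinct scores. Overlap, assignment and fit were tested on simulated data. With 1 list per group, no test between groups was made.

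Members and lists were chosen with earlier results of these data known. Named were members missing from a list (up to 15), up to 10 with a region in 1 list only, the 5 highest and 5 lowest by mean percentile, the 4 with most peaks, and 13 members of known function. Some single-gene results are not reported here.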

Additional observations from a re-analysis of the deposited data

Results flagged for a closer look

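The direction of the dHx minus WT difference in the share of ribosomal protein genes with a peak was not the same at the 3 tagRFP levels. It was 5.26 percentage points in High, -6.58 in Middle and 7.89 in Negative. The difference between levels was not tested, because each group was a single pooled list. Over all autosomal protein-coding genes the differences were -1.24, -1.33 and 4.04 points. The Negative value turned sign with midpoints inside the gene only (6.58, -11.8 and -6.58 points) and with lists of equal length (6.58, 0 and -1.32). At a deposited score of at least 5 the values were 2.63, -5.26 and 0 points, and with skipped peak numbers counted as peaks they were 2.63, -3.95 and 2.63.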

How the results depend on the processing

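No paired analysis was possible because each group was deposited as 1 pooled list, and for the same reason no replicate could be left out. Of 135 values under alternative settings, 97 stayed within the interval of the reported value (or within 1.5 times for a count) and 38 moved. The promoter, retrogene, left-out-list and skipped-number alternatives were chosen after seeing the data.

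With midpoints inside the gene only, the shares of members with a peak were 36.8%, 40.8%, 35.5%, 43.4%, 28.9% and 28.9%, and 7 members had a peak in all 6 lists. The starts lie at the edge of the gene, so this setting drops peaks centred upstream. Unmatched shares were then 22.9% (dHx High without WT High), 32.4% (WT Negative without dHx Negative), 33.3% (dHx Negative without WT Negative), 35.3% (WT Negative without WT High) and 29.6% (dHx Negative without dHx High). Shares of all genes with a peak were counted for the 1 kb rule and the promoter windows only. Under the other settings, here and below, the members' excess over all genes was not tested.

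Within 5 kb, 89.5% of members had a peak in WT Negative, 93.4% in dHx Middle and 94.7% in dHx Negative, and unmatched shares of WT Negative peaks were 36.1% against dHx Negative and 35.5% against WT High. At a score of at least 5, 77.6% had a peak in WT Middle, and in the dHx lists 81.6% (High), 72.4% (Middle) and 71.1% (Negative). Unmatched shares were then 14.9% for WT Middle against dHx Middle and 23.9% for dHx High against dHx Negative. With lists cut to the shortest length, 81.6% of members had a peak in WT Middle, and unmatched shares were 15.4% (WT Middle against dHx Middle) and 9.72% (dHx Negative against dHx High). With skipped numbers counted as peaks, WT Negative rose to 88.2%. Over the promoter windows 31 members had a peak in all 6 lists, of the 56 with a window. For these values the cause was not tested.

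With an overlap of at least 50% of both peaks, all 10 unmatched shares rose. Between genotypes they were 34.1% in both directions for High, 41.7% (WT) and 28.2% (dHx) for Middle, and 40.7% (WT) and 38.6% (dHx) for Negative. Between High and Negative they were 37.8% and 41.9% in WT, and 30.5% and 35.2% in dHx. Members stayed below all autosomal peaks in 10 of 10 comparisons under this setting, at a score of at least 5 and with cut lists. Without the WT Negative list 53 members had a peak in the other 5 lists, and 49 had a single region with a peak in all 6. The lists differ in fitted background by up to the span from 0.476 to 1.57, which limits how weak a peak each can hold.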

Other observations

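Ribosomal protein genes on the X chromosome lay outside the autosomal set. Of the 4, Rpl10, Rpl36a and Rpl39 had a peak within 1 kb in all 6 lists. Rpl10, which completes the large subunit, scored 25.1, 22.1, 11.5, 15.6, 16.3 and 15.6 in the order used above. Rpl36a scored between 4.31 (dHx Middle) and 11.5 (WT Negative), and Rpl39, a small protein of the exit tunnel, between 4.31 (dHx Middle) and 10.3 (WT Negative). Rps4x, a small-subunit gene, had a peak in WT Negative (3.28) and dHx Negative (3.74) and in no RFP-positive list. Both scores lay below the median score of their list (6.07 in WT Negative and 6.3 in dHx Negative). Of all autosomal regions, 5.36% held a peak in both Negative lists and in no High list, whatever the Middle lists held. Skipped peak numbers were not examined at Rps4x, and nothing is read from this gene about tagRFP level.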
